A study of Rattus norvegicus with 16 samples.

Results

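Mitochondrial ribosomal protein genes were followed in rat dorsal hairy skin after its cutaneous nerves had been cut. The members are the genes whose symbol begins with Mrpl, for the large ribosomal subunit, or Mrps, for the small one, followed by a digit. The choice uses names and no measured value. It gave 73 genes of the 14217 genes measured, out of 78 protein-coding genes that carry such a symbol in RefSeq (assembly GRCr8). The other 5 were not analysed here.

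Mitochondria make a few of their own proteins, which are core subunits of the respiratory chain and of ATP synthase, on ribosomes of their own. The RNAs of these ribosomes are transcribed from mitochondrial DNA, while the ribosomal proteins are encoded in the nucleus, made in the cytosol and imported. Some of the proteins have counterparts in bacterial ribosomes and others are found only in mitochondria, and the demand for them is high in skeletal muscle and other tissues that rely on oxidative metabolism.

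All 16 samples came from adult female Sprague-Dawley rats, from the skin of the T9/10 dermatome, and each was hybridized to 1 Affymetrix rat whole-genome expression array. There were 6 naïve samples, 5 samples taken 7 days after denervation and 5 taken 14 days after it. In denervated rats, under pentobarbital and through an incision on the right side, the left dorsal and lateral cutaneous nerves on either side of T11 were tied off and cut, T11 was left intact, and the rostral denervated zone was sampled. Naïve rats had no surgery, so that nerve section, incision and anesthesia cannot be told apart, and the sources differ on body weight and on which caudal nerves were cut. By the submitters' design text, samples also held the cutaneous trunci muscle, which attaches to this skin and was not itself denervated, its nerve supply having another origin. The authors deposited log2 values from robust multi-array averaging (RMA), and the values below are medians over the probesets of a gene on that scale. Some skin and muscle markers were high on every array. The basal keratin genes Krt5 and Krt14 were at 12.5 to 13.2 and 12.6 to 13.2. The skeletal actin gene Acta1 was at 13.4 to 14.0 and the muscle creatine kinase gene Ckm at 12.6 to 14.0. Others varied more between arrays. The muscle myosin gene Myh4 was at 8.96 to 13.1 and the collagen gene Col1a1 at 11.2 to 14.0. The keratin genes Krt1 and Krt10 were at 9.34 to 12.9 and 10.2 to 13.4. In such whole tissue, fewer cells of a type and less RNA per cell cannot be told apart.

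The naïve arrays were less alike than the others, and this touches every comparison with them. The lowest correlation between arrays of a group was 0.993 at 14 days and 0.978 at 7 days, against 0.931 in naïve skin, across probesets that are not independent replicates. Over the mitochondrial ribosomal protein genes, the median standard deviation of a gene was 0.0869 at 14 days and 0.122 at 7 days, against 0.162 in naïve skin, and it was smaller at 14 days than in naïve skin in 66 of the 73 genes. Naïve replicates 4 and 5 held the highest of all 16 values in 46 of the 73 genes. The counts of mitochondrial ribosomal protein genes that passed, and of the larger groups set beside them at 14 days, are therefore also given without them.

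At 14 days, 31 of the 73 genes were lower than in naïve skin and 1, Mrps2, was higher (limma, Benjamini-Hochberg adjusted p under 0.05 over all genes). That is 42.5% of the genes lower, where 14.6% of all genes tested were lower and 8.95% higher. The median log2 fold change of the 73 genes was -0.21, against 0.02 over all genes, and 60 of the 73 lay below 0, where 45.8% of all genes did. The decreases were modest. The 31 genes were at 64.4% to 87.1% of their naïve level, and a further 9 genes below naïve skin had an adjusted p between 0.05 and 0.1. In 10 genes, all lower, the highest 14 day array lay under the lowest naïve array, where 6.66% of all genes failed to overlap in this direction and 3.69% toward higher values. The plot of all log2 fold changes shows the genes by subunit.

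**Figure D1:**
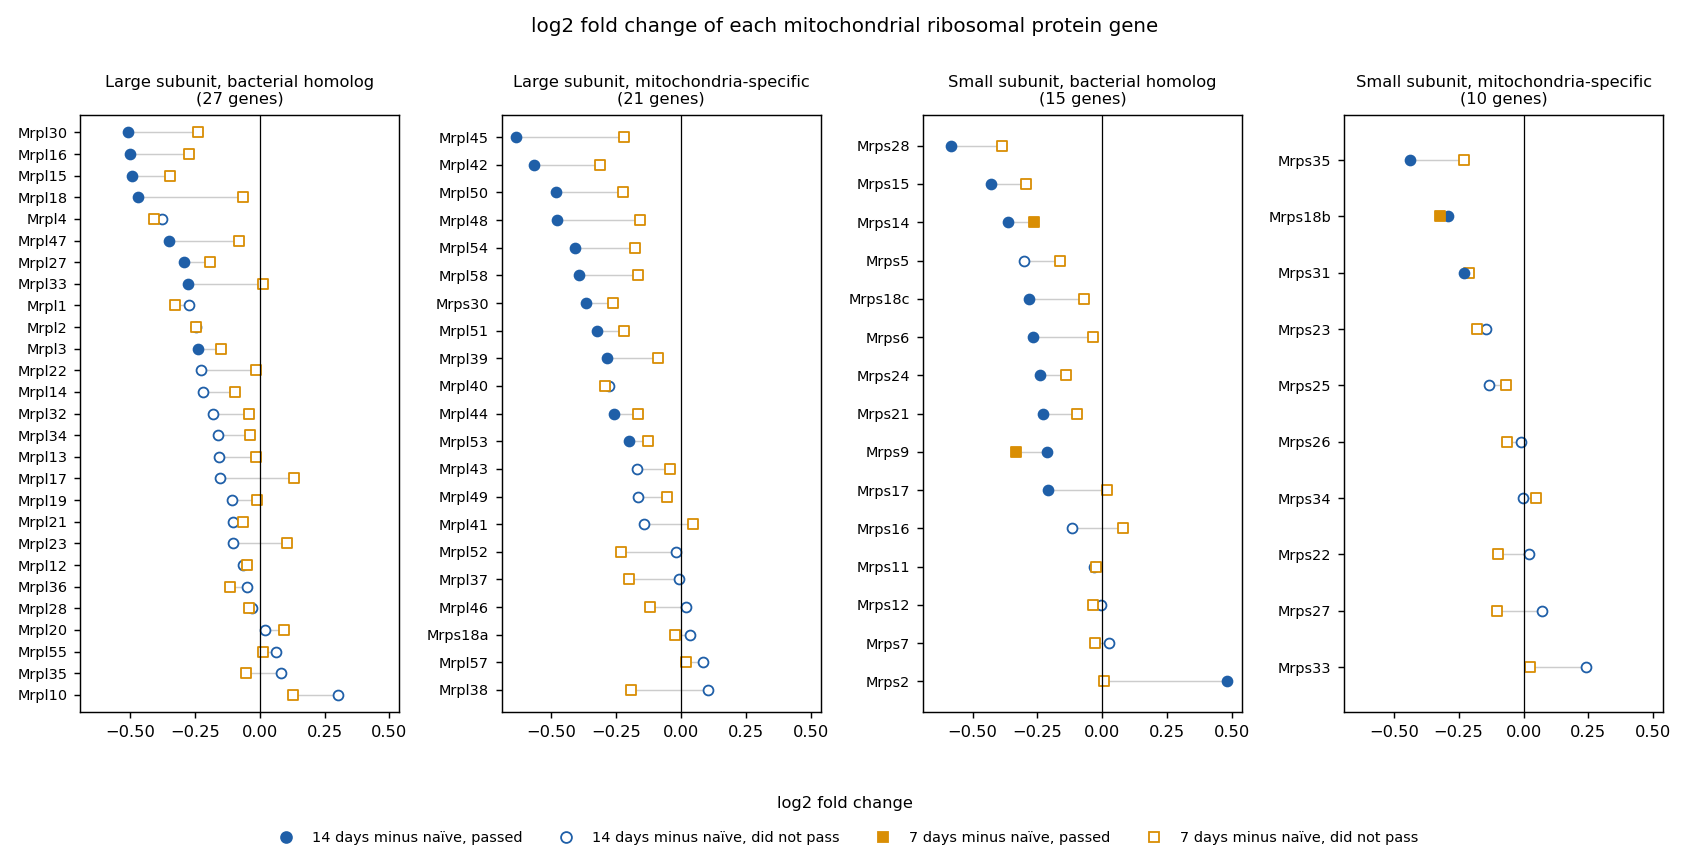
log2 fold change (horizontal axis) of each of the 73 mitochondrial ribosomal protein genes, in 4 panels by subunit and by whether the protein has a bacterial homolog. Blue circles are 14 days minus naïve, orange squares 7 days minus naïve, and filled symbols passed limma at an adjusted p under 0.05. Filled blue circles stand to the left of 0 for 31 genes and to the right of it for Mrps2.

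Genes of both subunits were lower at 14 days. Of 48 genes of the large subunit, 19 were lower and 0 higher, with a median log2 fold change of -0.21, and of 25 genes of the small subunit 12 were lower and 1 higher, with a median of -0.21. Here Mrps30 and Mrps18a were counted with the large subunit, where their proteins lie. Among proteins of the large subunit found only in mitochondria, 11 of 21 genes were lower (median -0.26), and among those with a bacterial homolog, 8 of 27 (median -0.18). In the small subunit, 9 of 15 genes with a bacterial homolog were lower (median -0.23) and 3 of 10 found only in mitochondria (median -0.07). Whether these classes differ was not tested.

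Mrpl45 had the largest decrease. Its protein lies beside the exit of the large subunit's tunnel and helps to attach the ribosome to the inner membrane. The 14 day arrays had levels of 8.27, 8.37, 8.06, 8.06 and 7.97, against a lowest of 8.43, a median of 8.75 and a highest of 9.15 in naïve skin. No 14 day array reached the lowest naïve array, although naïve replicates 4 to 6 lay well above naïve replicates 1 to 3. The log2 fold change was -0.64 (standard error 0.134, adjusted p = 0.00697), or 64.4% of the naïve level. At 7 days the levels were 8.56, 8.68, 8.57, 8.35 and 8.64, with a mean between those of the other groups (log2 fold change -0.22, adjusted p = 0.281).

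The next largest decreases at 14 days were in Mrps28, a gene of the small subunit, and in Mrpl42, Mrpl30, Mrpl16 and Mrpl15 of the large subunit. Mrps28 had levels of 8.19, 8.12, 8.20, 8.15 and 7.98 at 14 days, against a lowest of 8.15, a median of 8.76 and a highest of 9.14 in naïve skin (log2 fold change -0.58, standard error 0.157, adjusted p = 0.0203, not passing without 14 day replicate 5). Mrpl42 had levels of 8.99, 8.93, 8.93, 8.82 and 8.95 at 14 days, against a lowest of 8.94, a median of 9.48 and a highest of 9.93 in naïve skin (log2 fold change -0.57, adjusted p = 0.0153). In both genes the 14 day arrays lay together at the level of naïve replicate 2, the lowest of the naïve arrays, while naïve replicates 4 and 5 lay far above. Mrpl30, with a log2 fold change of -0.51 (adjusted p = 0.00967), has 9 named pseudogenes in the annotation, and whether its probeset also reads them was not tested. Mrpl16, whose bacterial homolog lies near the peptidyl transferase center, was at -0.50 (adjusted p = 0.0114), and Mrpl15 at -0.49 (adjusted p = 0.0273), which did not pass without any of naïve replicates 4 to 6 or 14 day replicates 3 to 5.

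Mrps14 and Mrps17 had smaller decreases with little spread. Both encode proteins of the small subunit that have bacterial homologs. Mrps14 had levels of 8.47, 8.54, 8.51, 8.47 and 8.35 at 14 days, against a lowest of 8.61, a median of 8.80 and a highest of 9.02 in naïve skin (log2 fold change -0.36, standard error 0.0682, adjusted p = 0.00421). Fitted singly, the dimmer of its 2 probesets was at -0.59 and passed. The brighter was at -0.14 and did not (adjusted p = 0.192 over all probesets). Mrps17 had levels of 9.75, 9.66, 9.70, 9.64 and 9.66 at 14 days, against a lowest of 9.83, a median of 9.86 and a highest of 10.04 in naïve skin (log2 fold change -0.21, standard error 0.0459, adjusted p = 0.0085). The groups did not overlap in either gene, and Mrps17 did not follow the division of the naïve arrays, since naïve replicates 4 and 5 had 9.91 and 9.84.

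Genes chosen for the role of their product were mixed. Mrpl58, which encodes a peptidyl-tRNA hydrolase built into the ribosome that frees stalled chains, had a log2 fold change of -0.39 at 14 days (adjusted p = 0.0152), and its groups did not overlap. Mrpl44, with a domain like that of ribonuclease III, was at -0.26 (adjusted p = 0.0179), again without overlap, and Mrpl3, a core protein of the large subunit, was at -0.24 (adjusted p = 0.0269), a call lost without naïve replicate 4 or 5 or 14 day replicate 2 or 5. In contrast, Mrps7, Mrps22, Mrps34 and Mrps12 lay within 0.03 of naïve skin on the log2 scale, with adjusted p from 0.819 to 0.998. The bacterial homolog of Mrps12 lies at the decoding center. Mrps22 was at 0.02 as a median of 2 probesets that went apart. The brighter was at -0.13, and the dimmer, with a mean level of 4.74, at 0.17. Mrps16 was at -0.12 (adjusted p = 0.266) and Mrpl41 at -0.14 (adjusted p = 0.155). Mrpl10 and Mrpl12 encode proteins of the stalk that receives translation factors. Mrpl10 was at 0.30 (adjusted p = 0.0593), with every 14 day array above the naïve mean. Fitted singly, its brighter probeset was at 0.14 (adjusted p = 0.247 over all probesets) and its dimmer at 0.46 (adjusted p = 0.0332). Mrpl12 was at -0.07 as a median of 2 probesets that went apart, the brighter at -0.41 and the dimmer at 0.28, so that no direction is given for it. Mrps15 was lower on its brighter probeset (-0.71) and at -0.15 on a probeset with a mean level of 4.41, near the low end of the scale, and its call was lost in 11 of the 16 fits that left out an array.

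Mrps2, a small subunit protein with a bacterial homolog, was the exception among the genes that passed. Its levels were 7.45, 7.45, 7.49, 7.25 and 7.69 at 14 days, against a lowest of 6.62, a median of 6.96 and a highest of 7.42 in naïve skin (log2 fold change 0.48, standard error 0.143, adjusted p = 0.0285). All 14 day arrays but replicate 4 lay above every naïve array, and naïve replicates 4 to 6 were the lowest of the naïve arrays here. Its 3 probesets were at 0.37, 0.48 and 0.34, of which that at 0.48 alone passed when probesets were fitted singly. The call was lost without any of naïve replicates 4 to 6 or 14 day replicates 1, 2, 3 and 5. After it came Mrpl10, at 0.30 (adjusted p = 0.0593), and then Mrps33, at 0.24 (adjusted p = 0.225), and neither passed. The plot of levels shows Mrps2 and other members array by array.

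**Figure D2:**
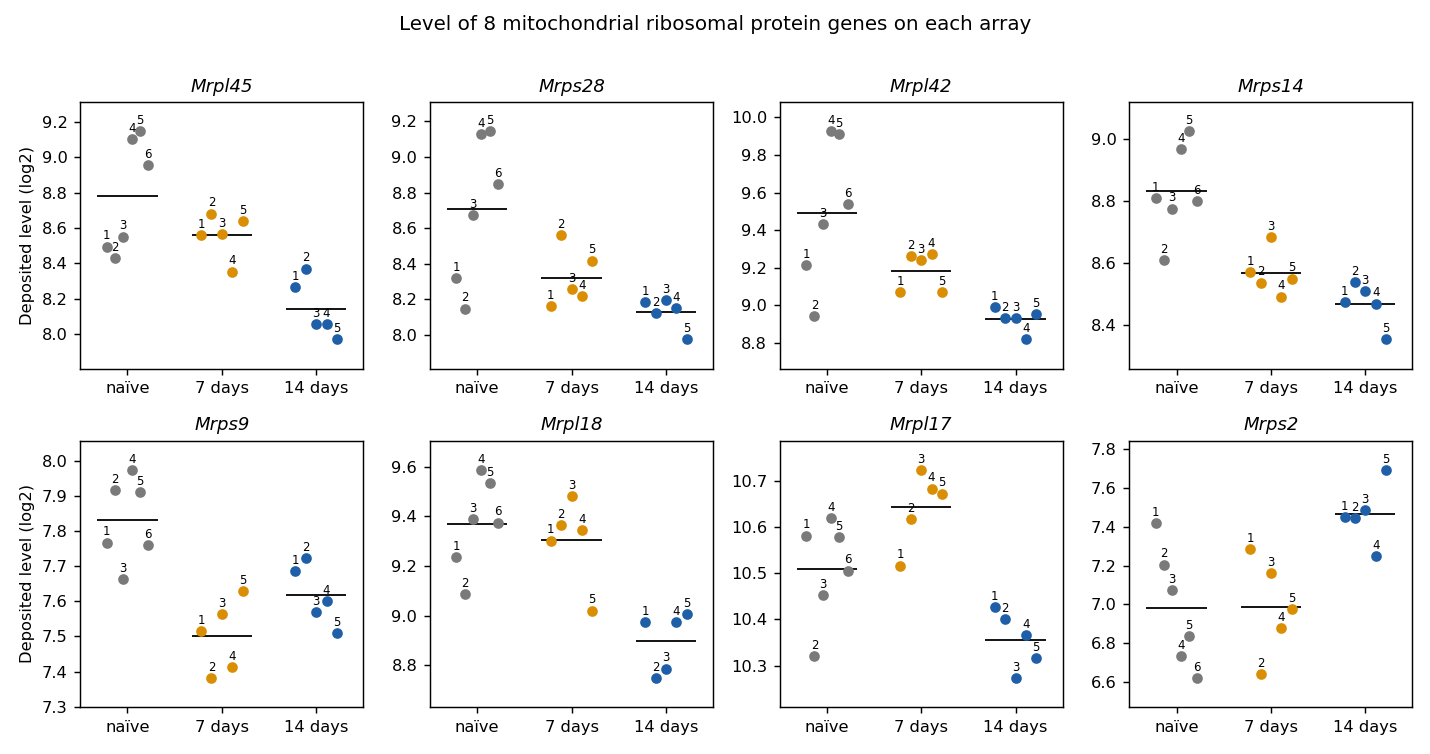
Deposited log2 level (vertical axis, RMA, median over probesets) of 8 mitochondrial ribosomal protein genes on each array. Points are arrays numbered by replicate, lines are group means, and each panel has its own axis. Mrpl45 ran from 7.97 to 8.37 at 14 days and from 8.43 to 9.15 in naïve skin, and Mrps2 ran from 7.25 to 7.69 at 14 days and from 6.62 to 7.42 in naïve skin.

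At 7 days few genes had passed. Against naïve skin, 3 of the 73 genes were lower and 0 higher, or 4.11% lower, where 2.66% of all genes were lower and 7.85% higher, so the share was close to that of all genes. At an unadjusted p under 0.05, 22 of the 73 genes would have passed in either direction. The share of all genes at that threshold was not counted. No excess is therefore read from this count or from later counts at that threshold. The median log2 fold change was -0.10, against -0.02 over all genes, and 60 of the 73 genes lay below 0, where 54.6% of all genes did. Only 1 gene, Mrps9, had groups that did not overlap, where 1.35% of all genes failed to overlap in this direction and 3.31% toward higher values.

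The 3 genes that were lower at 7 days all belong to the small subunit, and each also passed at 14 days. Mrps9, whose bacterial homolog reaches toward the tRNAs, had levels of 7.52, 7.38, 7.56, 7.41 and 7.63 at 7 days, against a lowest of 7.66, a median of 7.84 and a highest of 7.98 in naïve skin (log2 fold change -0.33, standard error 0.0672, adjusted p = 0.00839). Its mean was not lower at 14 days than at 7 days. The 14 day levels were 7.69, 7.72, 7.57, 7.60 and 7.51 (log2 fold change -0.21, adjusted p = 0.0337, not passing without naïve replicate 4 or 5 or 14 day replicates 3, 4 or 5). Its 2 probesets were both lower at 7 days, at -0.38 and -0.28, and went apart at 14 days, at -0.38 and -0.05. Mrps18b, which encodes a mitochondrial relative of a bacterial small subunit protein, was at -0.32 at 7 days (adjusted p = 0.0491) and -0.29 at 14 days (adjusted p = 0.0443), both close to the threshold, and passed at 7 days in 3 and at 14 days in 5 of the 16 fits that left out an array. Mrps14 was at -0.26 at 7 days (standard error 0.0682, adjusted p = 0.0246), with levels of 8.57, 8.54, 8.68, 8.49 and 8.55. This call was lost without naïve replicate 4 or 5 or 7 day replicate 4. Fitted singly, its dimmer probeset was at -0.40 at 7 days and passed (adjusted p = 0.0182 over all probesets). The brighter was at -0.12 and did not (adjusted p = 0.305). The comparisons at 7 and 14 days share the naïve arrays.

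Compared directly, 5 of the 73 genes were lower at 14 days than at 7 days and 1 was higher. That is 6.85% lower, where 10.1% of all genes were lower and 8.86% higher, a smaller share than among all genes in this fit of all arrays. The share was larger than among all genes when 7 and 14 day arrays were fitted alone (16 of the 73, against 17.7%). It was also larger with array weights (17 of the 73, against 18.2%) and without naïve replicates 4 and 5 (12 of the 73, against 12.9%). Without naïve replicates 1 and 2 it was close to that of all genes (12 of the 73, against 16.2%). It stayed smaller in other fits, such as after repeated quantile normalization (0, against 5.16%). As reported, the median log2 fold change was -0.10, against -0.01 over all genes. Of the 73 genes, 49 lay below 0, where 50.8% of all genes did. Groups failed to overlap in 11 genes toward lower and in 1 toward higher values, where this happened in 11.6% and 9.07% of all genes. The means ran in the order naïve, 7 days, 14 days from high to low in 41 of the 73 genes and in 27 of the 31 that were lower at 14 days than in naïve skin.

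The 5 genes lower at 14 than at 7 days were Mrpl17, Mrpl18, Mrpl33, Mrpl45 and Mrps17. Mrpl17, whose bacterial homolog is a protein of the large subunit, had levels of 10.43, 10.40, 10.27, 10.37 and 10.32 at 14 days, against 10.52, 10.62, 10.72, 10.68 and 10.67 at 7 days (log2 fold change -0.29, standard error 0.0616, adjusted p = 0.00894). Its 7 day mean lay above the naïve mean, with a log2 fold change of 0.13 (adjusted p = 0.15), and it did not pass at 14 days against naïve skin (-0.15, adjusted p = 0.0694). Mrpl18, a gene of the protein that in bacteria binds the small RNA of the large subunit, had levels of 8.97, 8.75, 8.79, 8.97 and 9.01 at 14 days, against 9.30, 9.37, 9.48, 9.35 and 9.02 at 7 days (log2 fold change -0.41, adjusted p = 0.0161). Mrpl33 was at -0.29 (adjusted p = 0.0178) and Mrps17 at -0.23 (adjusted p = 0.00845), and neither had moved by more than 0.02 at 7 days against naïve skin. Mrpl45 was at -0.42 (adjusted p = 0.0496), just inside the threshold, and did not pass in 18 of 30 alternative fits, among them those without any single 7 day or 14 day array or without naïve replicate 6. Mrps2 was higher at 14 than at 7 days by 0.48 on the log2 scale (adjusted p = 0.0387). This call was lost without any of 7 day replicates 2 to 5 or 14 day replicates 1, 2, 3 and 5. Fitted singly, its 3 probesets were at 0.09, 0.48 and 0.24, and that at 0.48 alone passed. The brightest was that at 0.09 (adjusted p = 0.705 over all probesets).

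Muscle markers moved with the members, while hair follicle, macrophage and fibroblast markers moved against them. A score here is the mean over a list of each gene's level minus its mean over all arrays. Over the 16 arrays, the member score correlated at 0.58 with the sarcomere score and at -0.63 with that of hair follicle genes. It was at -0.68 with macrophage and -0.76 with fibroblast genes. Correlations with epidermis, adipocyte, endothelium, Schwann cell and proliferation scores were -0.26, -0.47, -0.32, -0.17 and -0.35. The score of the 73 genes was -0.05, -0.03, -0.08, -0.14 and -0.16 on the 14 day arrays and -0.02, -0.08, 0.09, -0.11 and 0.01 on the 7 day arrays, against 0.10, -0.05, -0.02, 0.24, 0.24 and 0.07 on the naïve arrays. All 14 day arrays lay under every naïve array but replicate 2, and naïve replicates 4 and 5 stood above all others. Of 28 sarcomere genes, 16 were lower at 14 days than in naïve skin and 0 higher, and their scores ran from -0.67 to -0.31 at 14 days and from -0.69 to 0.60 at 7 days, against -0.69 to 1.19 in naïve skin. Of 12 hair follicle genes measured (of 25 listed), 11 were higher at 14 days and 0 lower, and their scores ran from 1.84 to 1.97 at 14 days and from -0.93 to 1.64 at 7 days, against -3.92 to 2.10 in naïve skin. Without naïve replicates 4 and 5, 2 of the 28 sarcomere genes were lower (median -0.73), and 0 of the 12 hair follicle genes passed (8 at an unadjusted p under 0.05, median 3.16). Of 16 macrophage genes, 2 were higher at 14 days and 14 at 7 days, and their scores ran from -0.11 to 0.28 at 14 days and from 0.32 to 1.04 at 7 days, against -1.83 to 0.60 in naïve skin. Of 12 fibroblast genes, 3 were higher at 14 days and 8 at 7 days, and their scores ran from -0.01 to 0.33 at 14 days and from 0.23 to 1.10 at 7 days, against -1.99 to 0.17 in naïve skin. Naïve replicates 4 and 5 were the lowest of all arrays in both lists. They had the widest gaps between the 3 prime and middle probesets of beta-actin, at 0.96 and 1.20. Over all naïve arrays this gap ran from 0.18 to 1.20 with a median of 0.68, against 0.05 to 0.28 at 14 days and 0.20 to 0.29 at 7 days. It correlated with the member score at 0.80 over the 16 arrays. The gap between 3 prime and 5 prime probesets was not wider on naïve replicates 4 and 5. Its correlation with the member score was -0.43 for beta-actin and 0.04 for Gapdh. The values of the 3 prime to 5 prime gap were as follows. For beta-actin it was 0.47 to 0.74 at 14 days and 0.58 to 0.69 at 7 days, against 0.50 and 0.14 on naïve replicates 4 and 5. For Gapdh it was 0.32 to 0.37 at 14 days and 0.23 to 0.42 at 7 days, against 0.29 and 0.31 on naïve replicates 4 and 5. The part of these differences in the decreases was not tested.

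**Figure D3:**
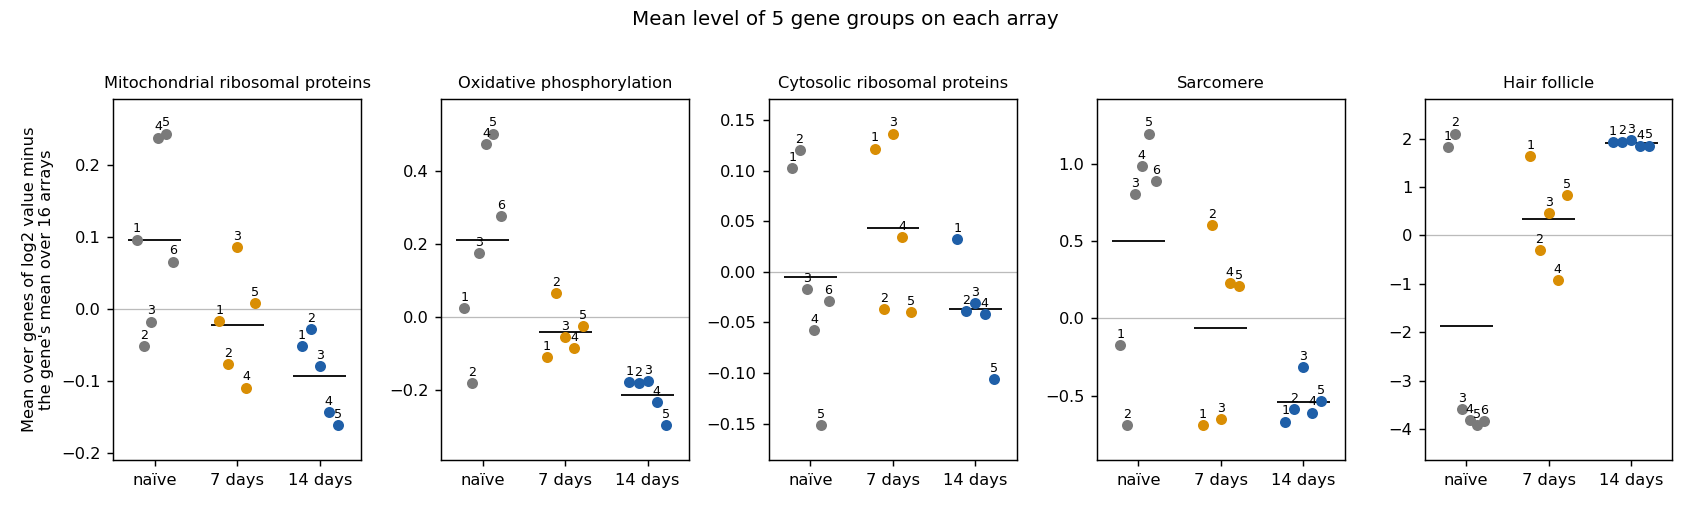
Score (vertical axis, log2 scale, each panel with its own axis) of 5 gene groups on each array, numbered by replicate within naïve, 7 day and 14 day samples, with lines at group means. The score of the mitochondrial ribosomal protein genes lay between -0.16 and -0.03 at 14 days and between -0.05 and 0.24 in naïve skin, where replicates 4 and 5 were highest, while the hair follicle score separated naïve replicates 1 and 2 from the other naïve arrays.

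The count of genes lower at 14 days rested on the naïve arrays in use. Without naïve replicates 4 and 5, 7 of the 73 genes were lower, where 4.98% of all genes were, and the 7 (Mrpl16, Mrpl18, Mrpl30, Mrpl45, Mrps14, Mrps17 and Mrps35) had all been among the 31. The median was then -0.15 and 55 of the 73 genes lay below 0, among them each of the 31. Without naïve replicates 1 and 2 the count was 40, where 21.8% of all genes were lower. Among single arrays, the count was 16 without 14 day replicate 5, 17 without naïve replicate 4, 18 without 14 day replicate 4, 20 without naïve replicate 5 and 20 without 14 day replicate 3. When the model held the sarcomere score, 1 gene was lower, Mrps17, where 1.65% of all genes were. When it held the hair follicle score, this was again Mrps17, where 1.58% of all genes were. The medians in these fits were -0.14 and -0.14, and all 31 genes kept a log2 fold change below 0. Mrps17 itself was at -0.22 without naïve replicates 4 and 5 (adjusted p = 0.0304), at -0.26 with the sarcomere score (adjusted p = 0.0304) and at -0.27 with the hair follicle score (adjusted p = 0.0313), but it did not pass after the values were quantile normalized again (-0.06, adjusted p = 0.324). At 7 days, leaving out naïve replicates 4 and 5 left 0 genes lower (6 of the 73 at an unadjusted p under 0.05), and leaving out naïve replicates 1 and 2 gave 27, where 16.4% of all genes were lower. Among single arrays, it was 17 without naïve replicate 2, 8 without naïve replicate 3, and 1 without naïve replicate 4, naïve replicate 5 or 7 day replicate 4. Mrps2 did not pass at 14 days without naïve replicates 4 and 5 (0.38, adjusted p = 0.139), and was at 0.13 (adjusted p = 0.586) when the sarcomere score and 0.12 (adjusted p = 0.655) when the hair follicle score was in the model. When the values were quantile normalized again, 18 genes were lower at 14 days than in naïve skin, where 12.9% of all genes were. These 18 were all among the 31. In that fit none of the 73 genes were lower at 14 than at 7 days (16 at an unadjusted p under 0.05 in either direction).

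**Figure D4:**
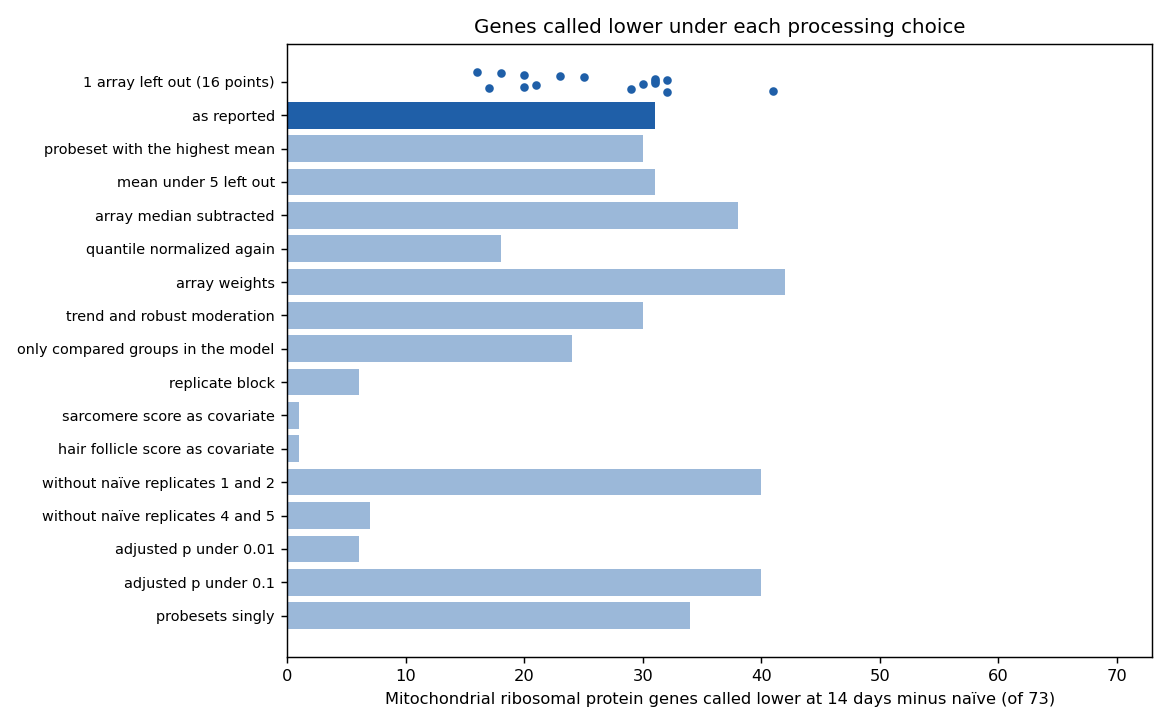
Number of the 73 mitochondrial ribosomal protein genes lower at 14 days than in naïve skin (horizontal axis) under each processing choice, with the 31 genes of the reported fit as the dark bar and 1 point for each array left out in turn. The counts fell to 7 without naïve replicates 4 and 5 and to 1 with either marker score as a covariate.

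Other genes of mitochondrial gene expression were examined beside the ribosomal proteins. Of 70 genes in 5 lists of this process, 26 were lower at 14 days and 4 higher, with a median log2 fold change of -0.11. That is 37.1% lower, where 14.6% of all genes were. Without naïve replicates 4 and 5, 8 of the 70 were lower (11.4%) and 2 higher, where 4.98% of all genes were lower. Of 5 proteins of the mitochondrial ribosome that carry other symbols, 3 were lower, Chchd1 (-0.69, adjusted p = 0.01), Aurkaip1 and Gadd45gip1, and 0 higher. Oxa1l, listed with them, is not a ribosomal protein but the insertase to which the ribosome docks, and was at -0.30 (adjusted p = 0.0318). Dap3, a protein of the small subunit, was at 0.16 (adjusted p = 0.0746).

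Translation factors went in both directions at 14 days. Of 11, 4 were lower (36.4%) and 2 higher (18.2%), where 14.6% of all genes were lower and 8.95% higher. Without naïve replicates 4 and 5, 2 were lower and 1 higher. Mtif2, the initiation factor, was at -0.79 (standard error 0.132, adjusted p = 0.00229), and the release factor genes Mtrf1 and Mtrf1l were at -0.65 (adjusted p = 0.024) and -0.29 (adjusted p = 0.00347). Mtfmt, which formylates the initiator methionyl-tRNA, was at -0.40 (adjusted p = 0.028). Gfm2, a factor that recycles ribosomes, was at 0.35 (adjusted p = 0.0188), and Taco1, an activator of cytochrome oxidase subunit I translation, at 0.29 (adjusted p = 0.0186). Taco1 lay near the low end of the scale, with mean levels of 4.64 in naïve skin and 4.93 at 14 days. Of 24 genes of ribosome assembly and rRNA modification, 9 were lower and 1 higher. Ngrn, which is needed for the level of the large subunit's rRNA, was at -0.59 (adjusted p = 0.00238), Malsu1, an assembly factor of the large subunit, at -0.43 (adjusted p = 0.00549), and Tfb1m, which methylates the rRNA of the small subunit, at 0.24 (adjusted p = 0.0206). Of 16 genes that charge mitochondrial tRNAs, Hars2 and Nars2 were lower and 0 higher, or 12.5% lower, a share under that of all genes.

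Of 13 genes of mitochondrial DNA maintenance and transcription, 7 were lower at 14 days and 1 higher. Ssbp1, the single-stranded DNA binding protein, was at -0.39 (adjusted p = 0.000878), Tfam, which packages and transcribes mitochondrial DNA, at -0.34 (adjusted p = 0.0153), Tfb2m, a transcription initiation factor, at -0.71 (adjusted p = 0.0154), and Lrpprc, which stabilizes mitochondrial mRNAs, at 0.20 (adjusted p = 0.0128). Among 10 nuclear regulators of mitochondrial genes, 3 were lower at 14 days, Gabpa, Tfam and Ppargc1a. Ppargc1a, a coactivator that raises mitochondrial content in muscle, was lower at both times, at -0.92 at 7 days (standard error 0.15, adjusted p = 0.00333) and -0.79 at 14 days (adjusted p = 0.00421). Nrf1 was at 0.06 (adjusted p = 0.558) and Yy1 at 0.05 (adjusted p = 0.622) at 14 days.

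A pair of larger groups framed these values. Of 71 measured nuclear-encoded subunits of oxidative phosphorylation, 59 were lower at 14 days and 0 higher, with a median of -0.44, including 29 of 34 in complex I, 4 of 4 in complex II, 7 of 8 in complex III, 8 of 12 in complex IV and 11 of 13 in ATP synthase. Of 42 cytosolic ribosomal protein genes, 3 were lower and 0 higher, with a median of -0.02. Without naïve replicates 4 and 5, the counts lower were 24 of 71 (median -0.30) and 2 of 42 (median -0.07). At 7 days the counts lower were 8 of 71 and 0 of 42. The medians at 14 days, in the model with the sarcomere score, were -0.14 for the mitochondrial ribosomal protein genes, -0.17 for oxidative phosphorylation and -0.17 for cytosolic ribosomal proteins. Differences between these groups were not tested.

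**Figure D5:**
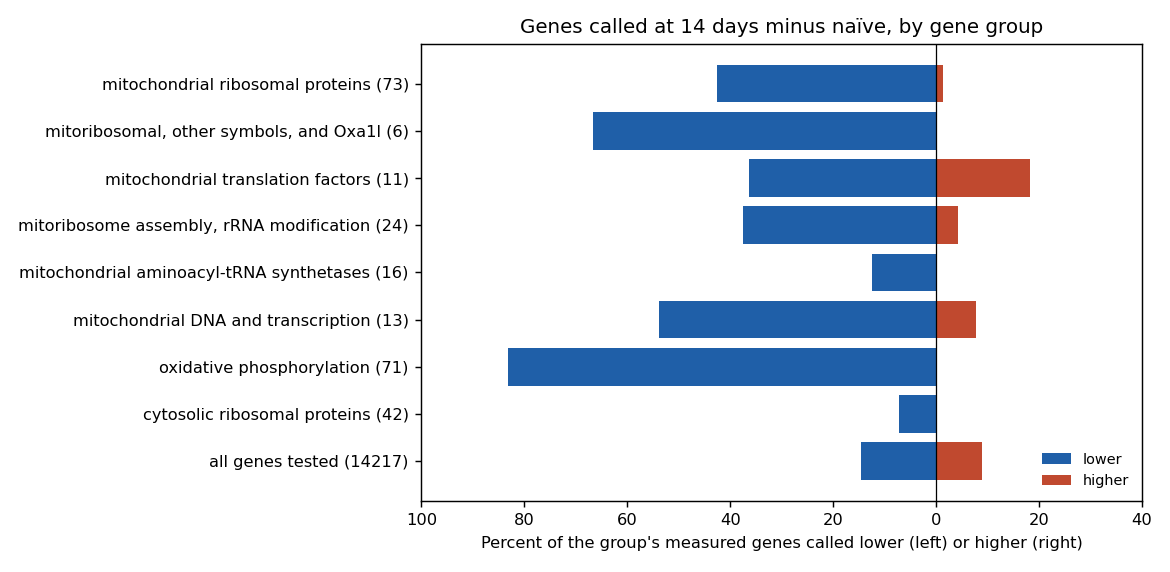
Percent of the measured genes of 8 groups, and of all 14217 genes, that were lower (bars to the left of 0) or higher (bars to the right) at 14 days than in naïve skin by limma at an adjusted p under 0.05, with the number of measured genes in brackets. For mitochondrial ribosomal proteins 42.5% were lower, for oxidative phosphorylation 83.1% and for cytosolic ribosomal proteins 7.14%, against 14.6% of all genes.

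Promoters were read from RefSeq sequence of the GRCr8 assembly, for 59 of the 73 genes that matched, as the 250 bases before each gene's start and the 50 after it. Exact motif letters were searched on both strands, and a promoter was counted once per motif. The motif CCGGAAG, bound by ETS factors such as the product of Gabpa, was in 20 of the 59 promoters (33.9%), against 11.2% of 19005 promoters of protein-coding genes. AAGATGGCG, a YY1 motif, was in 8 (13.6%, against 2.29%), and GCGCATGCG, a motif of nuclear respiratory factor 1, in 5 (8.47%, against 2.03%). This last motif nearly reads the same on both strands, so that its matches overlap. At least 1 of the 3 motifs was in 29 promoters (49.2%, against 14.5%). The same was in 43.5% of 69 promoters of oxidative phosphorylation subunits and in 38.7% of 62 promoters of cytosolic ribosomal proteins, also above the share of all promoters. In these groups the ETS motif was in 29% and 32.3%, the YY1 motif in 14.5% and 4.84%, and that of nuclear respiratory factor 1 in 8.7% and 1.61%. In promoters of the mitochondrial ribosomal protein genes, GGGCGGG, an SP1 motif, was in 19 (32.2%, against 30.7%), and GATTGG, the CCAAT box, in 14 (23.7%, against 16.8%). Of the 26 promoters of genes lower at 14 days, 15 held 1 of the first 3 motifs (57.7%), and of the 32 of genes that did not pass, 14 did (43.8%). A match is a description of these letters and says nothing of binding.

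The 250 bases before the start are shown for 5 genes, 5′ to 3′ on the strand of the gene, with motif matches in capitals: Mrpl45 with the largest decrease, Mrps2 as the higher gene, Mrps18b lower at both times, Mrpl44 with the motif of nuclear respiratory factor 1, and Mrpl33 with an ETS match close to its start. Mrpl45 lies at chr10:82804789-82805038 (plus strand) and Mrps2 at chr3:32200827-32201076 (plus strand), and neither window holds any of the 5 motifs. Mrps18b lies at chr20:2842756-2843005 (plus strand), Mrpl44 at chr9:88554800-88555049 (plus strand) and Mrpl33 at chr6:30553988-30554237 (minus strand). The capitals at the end of the Mrps18b line are the first part of an ETS match that runs past the start.
Mrpl45: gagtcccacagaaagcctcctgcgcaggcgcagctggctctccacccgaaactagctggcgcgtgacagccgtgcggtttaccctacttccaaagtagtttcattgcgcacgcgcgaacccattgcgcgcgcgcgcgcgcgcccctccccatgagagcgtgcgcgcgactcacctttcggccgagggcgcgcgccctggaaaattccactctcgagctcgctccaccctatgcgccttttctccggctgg
Mrps2: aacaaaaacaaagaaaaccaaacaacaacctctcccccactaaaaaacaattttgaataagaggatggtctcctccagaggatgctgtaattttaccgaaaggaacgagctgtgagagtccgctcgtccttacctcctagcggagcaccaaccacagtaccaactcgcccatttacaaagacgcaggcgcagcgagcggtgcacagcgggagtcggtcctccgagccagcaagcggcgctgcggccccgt
Mrps18b: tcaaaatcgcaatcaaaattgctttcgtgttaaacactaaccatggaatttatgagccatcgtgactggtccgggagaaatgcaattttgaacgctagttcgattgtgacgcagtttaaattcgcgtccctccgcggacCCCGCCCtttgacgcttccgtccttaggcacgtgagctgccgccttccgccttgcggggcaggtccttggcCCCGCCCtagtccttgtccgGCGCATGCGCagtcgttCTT
Mrpl44: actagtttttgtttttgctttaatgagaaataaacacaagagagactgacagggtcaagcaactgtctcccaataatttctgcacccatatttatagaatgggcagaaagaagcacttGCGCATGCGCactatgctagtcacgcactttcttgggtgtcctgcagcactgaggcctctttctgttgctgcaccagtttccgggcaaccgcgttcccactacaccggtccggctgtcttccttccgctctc
Mrpl33: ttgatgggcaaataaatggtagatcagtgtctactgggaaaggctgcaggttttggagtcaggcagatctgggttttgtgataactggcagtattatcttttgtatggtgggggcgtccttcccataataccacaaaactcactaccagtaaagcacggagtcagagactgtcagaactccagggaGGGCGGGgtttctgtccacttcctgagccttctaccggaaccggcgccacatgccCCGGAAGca

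The 73 genes are spread over 18 chromosomes, with at most 12 on a chromosome. Mrpl46 and Mrps11 alone are neighbors, head to head with 15 bases from the bound of the annotated span of one gene to that of the other, and neither passed at 14 days, at 0.02 (adjusted p = 0.861) and -0.03 (adjusted p = 0.797). Of 55 genes with 1 probeset, 24 were lower at 14 days (median -0.22), and of 18 with more, 7 (median -0.12). Of 21 genes with a named pseudogene, 10 were lower (median -0.25), and of 52 without, 21 (median -0.17). Of the 37 genes in the upper part by mean level, 16 were lower (median -0.20), and of the 36 in the lower part, 15 (median -0.22). These differences were not tested.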

How the data were processed

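Expression in dorsal skin was measured on 16 arrays. The authors deposited log2 values from RMA for 31099 probesets; the submitters' processing notes name R 3.0.1. Of the probesets, 57 controls, 9780 without a gene and 436 with more than 1 gene were not used, and the other 20826 gave a median per gene for 14217 genes. limma 3.58.1 in R 4.3.3 fitted group means to all arrays jointly, and p-values were adjusted by Benjamini-Hochberg over these genes at 0.05. The fit was tested on simulated data. Arrays give no counts, so their number limits the precision.

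The members and lists were chosen with earlier results of these data known. Genes named are, per comparison, the 6 largest changes among members that passed with every later array on the same side of the earlier mean, up to 3 against the main direction, a list chosen by role, and members whose probesets differ by over 0.5 in the comparison of 14 days with naïve skin. Mrps33, Mrps35, Mrps30, Mrps18a, Mrpl46, Mrps11 and the partner genes were named after their values were seen. Alternatives changed the probeset rule, dim genes, scaling, weights, moderation, arrays used, a replicate block, marker covariates and thresholds. Replicate numbers did not pair the samples. Nothing says that samples of a group came from separate rats beyond the group sizes, so p-values measure the spread between samples.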

Additional observations from a re-analysis of the deposited data

Results flagged for a closer look

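Among groups of arrays of the 26 named genes and the score, 3 of 81 had an array apart from the rest by Dixon's criterion, where chance gives about 1 in 20. Mrps15 lay at 5.95 in 7 day replicate 1, against 6.21 to 6.30 in the other 7 day arrays. Mrps16 lay at 9.02 in naïve replicate 4 where other naïve samples had 8.71 to 8.80, and Mrps17 at 10.04 in naïve replicate 1, against 9.83 to 9.91.

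In 6 genes the difference from naïve skin itself differed between the times, tested as 14 minus 7 days in limma. The log2 fold changes were -0.29 for Mrpl17 (adjusted p = 0.00894), -0.41 for Mrpl18 (adjusted p = 0.0161), -0.29 for Mrpl33 (adjusted p = 0.0178), -0.42 for Mrpl45 (adjusted p = 0.0496), -0.23 for Mrps17 (adjusted p = 0.00845) and 0.48 for Mrps2 (adjusted p = 0.0387). All 5 of the 14 day arrays lay on the same side of the 7 day mean in each of these genes. Of the 73 genes, 6.85% were thus lower and 1.37% higher, where 10.1% and 8.86% of all genes were. When 7 and 14 day arrays were fitted alone, 16 of the 73 were lower, a larger share than the 17.7% of all genes. After repeated quantile normalization 0 of the 73 were lower, and Mrpl45 did not pass in 18 of 30 alternative fits. The brightest probeset of Mrps2 was at 0.09 and did not pass (adjusted p = 0.705 in limma over all probesets).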

How the results depend on the processing

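Lower counts at 14 days against naïve skin were 31 as reported, 18 after repeated quantile normalization, 6 with the replicate block, 1 with the sarcomere and 1 with the hair follicle score, 6 at an adjusted p under 0.01, 7 without naïve replicates 4 and 5, and 16 to 41 with 1 array left out. Of all genes, 14.6% were lower as reported, 12.9% after quantile normalization and 6.32% with the replicate block. With the sarcomere score 1.65% were lower, with the hair follicle score 1.58%, and without naïve replicates 4 and 5 4.98%. Higher counts were 1 as reported, 0 with the brightest probeset, the replicate block, either score, an adjusted p under 0.01 or without naïve replicates 4 and 5, 2 after quantile normalization and at 0.1, 3 without naïve replicates 1 and 2 and with single probesets, 4 with array weights, and 0 to 2 with 1 array left out. Lower counts at 7 days were 3 as reported, 1 with the brightest probeset, only the compared groups, the replicate block, either score or 0.01, 7 after quantile normalization, 9 at 0.1, 15 with array weights, 27 without naïve replicates 1 and 2, 0 without 4 and 5, and 1 to 17 with 1 array left out. Of all genes, 2.66% were lower as reported, 3.66% after quantile normalization and 12% with array weights. Without naïve replicates 1 and 2 this share was 16.4%, and without 4 and 5 it was 0.324%. Higher counts at 7 days were 0 as reported and 1 with array weights or without naïve replicates 1 and 2. For 14 against 7 days, lower counts were 5 as reported, 0 after quantile normalization, 17 with array weights, 16 with only the compared groups, 12 without either naïve pair, 2 at 0.01, 12 at 0.1, and 4 to 7 with 1 array left out. Higher counts were 1 as reported, 4 after quantile normalization, 2 with array weights, only the compared groups, single probesets, 0.1 or without either pair, 0 at 0.01, and 0 to 2 with 1 array left out. The median log2 fold change for 14 against 7 days was 0.0242 after quantile normalization and -0.10 as reported. The cause of these changes was not tested. Of all genes called at 14 days, 62% were lower as reported, 73% with array medians subtracted and 51.7% after quantile normalization. Same-numbered samples correlated at -0.552 to 0.583, so the block has no basis in pairing. Over 78 pairs of a named gene and a comparison and 2340 alternatives, 2096 kept direction and side of the threshold, 191 lost it, 53 gained it and 0 reversed. Only 26 of the 78 pairs had passed as reported, and all 191 losses fell on these. Many of the 2096 are pairs that had not passed and stayed so, and they do not speak for the genes that passed.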
